A study of Mus musculus with 4 samples.

Results

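The genes of the cytosolic ribosomal proteins were examined in the embryonic telencephalon, the part of the forebrain that forms the cerebral cortex and the basal ganglia, with and without the chromatin protein CTCF. Members were chosen by symbol alone, as Rps or Rpl followed by a number and an optional a or x, together with Rplp0, Rplp1, Rplp2 and Rpsa, which gave 76 of the 48795 genes measured. Of these, 30 encode proteins of the small subunit, 43 encode proteins of the large subunit outside its P stalk, and 3 encode the P stalk. All 76 passed the filter on low values.

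The tested embryos were labelled Ctcf-null and carried a floxed Ctcf gene together with NestinCre, a Cre recombinase driven by Nestin sequences, which are active in neural progenitors, and neurons derived from them inherit the recombined gene. Controls carried the floxed Ctcf gene without the Cre. All were C57BL/6 mice at embryonic day 14, and each genotype had 2 libraries that the submitters arranged as 2 pairs of 1 Ctcf-null and 1 control library. Cells in which Nestin sequences are silent, such as blood and microglia, keep CTCF in this model, and no control carried the Cre alone. Whether each library is from its own embryo is not said in the labels, so p-values cover no more than the spread seen among these 4 libraries, and that spread may be technical.

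The cytosolic ribosome translates nuclear-encoded mRNA. Its small subunit decodes the message, its large subunit joins the amino acids, and the P stalk of the large subunit, built from Rplp0 with Rplp1 and Rplp2, recruits the GTP-hydrolysing translation factors. Ribosomal proteins are made in matched amounts in proliferating cells, their mRNAs are abundant, and many of these mRNAs begin with a run of pyrimidines (C or T), the 5′ TOP motif, through which mTOR signalling controls their translation.

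Libraries held 25519331 to 43812558 reads. The Ctcf transcript had normalized read counts of 38.89 and 61.96 in Ctcf-null telencephalon, against 436.72 and 1133.21 in controls, a log2 fold change of -3.75 (SE 0.16, limma adjusted p = 5.6e-09). All 12 markers of telencephalic progenitors and neurons were detected. In the limma test described below, 4.71% of all tested genes were called lower and 4.09% higher. The 6 progenitor markers summed to 29033.8 and 58251.4 in Ctcf-null libraries and 42286.7 and 72681.9 in controls, with 2 genes lower and 1 higher. The 6 neuronal markers summed to 247394.0 and 192610.4 in Ctcf-null libraries and 338341.0 and 235780.7 in controls, also with 2 lower and 1 higher. Markers of endothelium and of pericytes and meninges had 0 genes called of 8 in each list. The 8 microglial markers summed to 1554.2 and 3749.1 in Ctcf-null libraries and 1252.3 and 3127.0 in controls, with 2 genes higher. The 7 choroid plexus markers summed to 95453.8 and 35769.9 in Ctcf-null libraries and 72857.8 and 24714.3 in controls, with 2 genes higher. The 11 erythroid markers found summed to 925001.7 and 627033.0 in Ctcf-null libraries and 1344564.1 and 576270.9 in controls, with opposite directions in the pairs and 0 called. Mitochondrially encoded transcripts, listed as a sign of RNA quality, took 3.34% and 2.88% of the reads in Ctcf-null libraries against 2.43% and 2.65% in controls, with 4 of 9 higher. None of the listed markers was at 0 in all libraries. The part of these shifts in the results below was not tested, and in whole tissue fewer cells of a type cannot be told apart from less RNA per cell.

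The promoters of 5 members around which the results turn are shown because they let the start of each mRNA be compared with the TOP motif. They cover 60 bases before and 30 bases after the annotated start (RefSeq, build GRCm38.p6, given 5′ to 3′ on the strand of the gene). Capitals mark the longest run of C or T that begins between 20 bases before the start and the end of the stretch shown. Of runs of equal length the first is marked. In Rpl10a the marked run lies before the annotated start, and an unmarked run of the same length, 7 bases, lies after it. Rpl10a and Rps24 each have 2 annotated starts, and the start with the longest run of C or T within 20 bases was taken. The runs shown for these 2 genes were thus partly selected. The first 4 genes were called lower in Ctcf-null telencephalon, and Rps24 had the highest fold change of the 76. No promoter was at hand for Rpl36, which was also called lower. Their places are chrX:134585594-134585683 (plus strand) for Rpl36a, chr5:115559407-115559496 (plus) for Rplp0, chrX:102189362-102189451 (minus) for Rps4x, chr17:28328411-28328500 (plus) for Rpl10a and chr14:24490618-24490707 (plus) for Rps24.
Rpl36a: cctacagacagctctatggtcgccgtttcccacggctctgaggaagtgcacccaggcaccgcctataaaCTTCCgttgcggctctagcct
Rplp0: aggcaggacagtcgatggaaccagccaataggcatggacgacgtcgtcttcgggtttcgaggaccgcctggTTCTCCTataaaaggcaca
Rps4x: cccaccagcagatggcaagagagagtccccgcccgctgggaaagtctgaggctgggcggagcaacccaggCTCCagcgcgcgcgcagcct
Rpl10a: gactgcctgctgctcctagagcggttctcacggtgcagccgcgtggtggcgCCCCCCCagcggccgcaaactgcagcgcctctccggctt
Rps24: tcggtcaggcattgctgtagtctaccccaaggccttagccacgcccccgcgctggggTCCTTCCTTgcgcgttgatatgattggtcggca

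RefSeq promoters were at hand for 56 of the 76 members. A run of at least 8 bases of C or T on the strand of the gene, lying within 20 bases of an annotated start, was found in 28 of the 56 (50%), against 18.4% of the 27025 genes with a promoter. Within 50 bases on either side the counts were 48 of 56 (85.7%) and 39.3%. The motif CTTTC, which can lie inside such a run, was found on the strand of the gene within 20 bases in 18 of 56 (32.1%) against 6.44%, and on either strand in 35.7% against 11.8%. Among the 5 genes shown, the longest run within 50 bases was 13 bases in Rpl36a, 7 in Rplp0, 7 in Rps4x, 7 in Rpl10a and 12 in Rps24. Of the 4 lower genes shown, 1 thus had a run of 8 or more within 50 bases, as did Rps24 at the start selected for its run. The runs of 13 and 12 bases do not lie wholly within the stretch shown. In Rpl36a and Rplp0 the letters tataaa follow the annotated start, and runs beyond 50 bases were not searched. A lack of a run here is therefore not a lack of one in the mRNA. A match is a description of letters in the window, and the annotated start may differ from the start used in this tissue.

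In Ctcf-null telencephalon Rpl36a fell by 34.8%, Rpl36 fell by 33.2% and Rplp0 fell by 33.1%, in both pairs, the most of the 76 members. Rps4x fell by 20.6%, Rpl10a fell by 18.3% and Rpl5 fell by 14.6%. No member rose, although Rps24 passed as higher when values were centred on genes with a mean count of 1000 or more, and Rps24 and Rps23 did with the trend on expression removed. The other 70 genes did not pass the test and lay between -0.22 and 0.18 on the log2 scale. Fold changes here and below compare each Ctcf-null library with the control of its pair, relative to the median of all 22158 tested genes, on the log2(normalized count + 1) scale. A gene is called lower or higher at an adjusted p under 0.05 from limma with the pair as a term (two-sided, Benjamini-Hochberg over all tested genes, 2 libraries per genotype). With that test 6 of 76 members were lower (7.90%) where 4.71% of all tested genes were lower, and 0 of 76 were higher where 4.09% were higher. Among the 360 tested genes outside the family with a mean of 10000 or more normalized reads, 51 were lower (14.2%) and 16 higher. At an unadjusted p under 0.05 there were 27 members and 4986 of the 22158 tested genes. With the authors' own scaling, which is not centred on the median gene, 32 members were lower where 10.1% of tested genes were lower, and 0 were higher where 3.67% were.

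**Figure D1:**
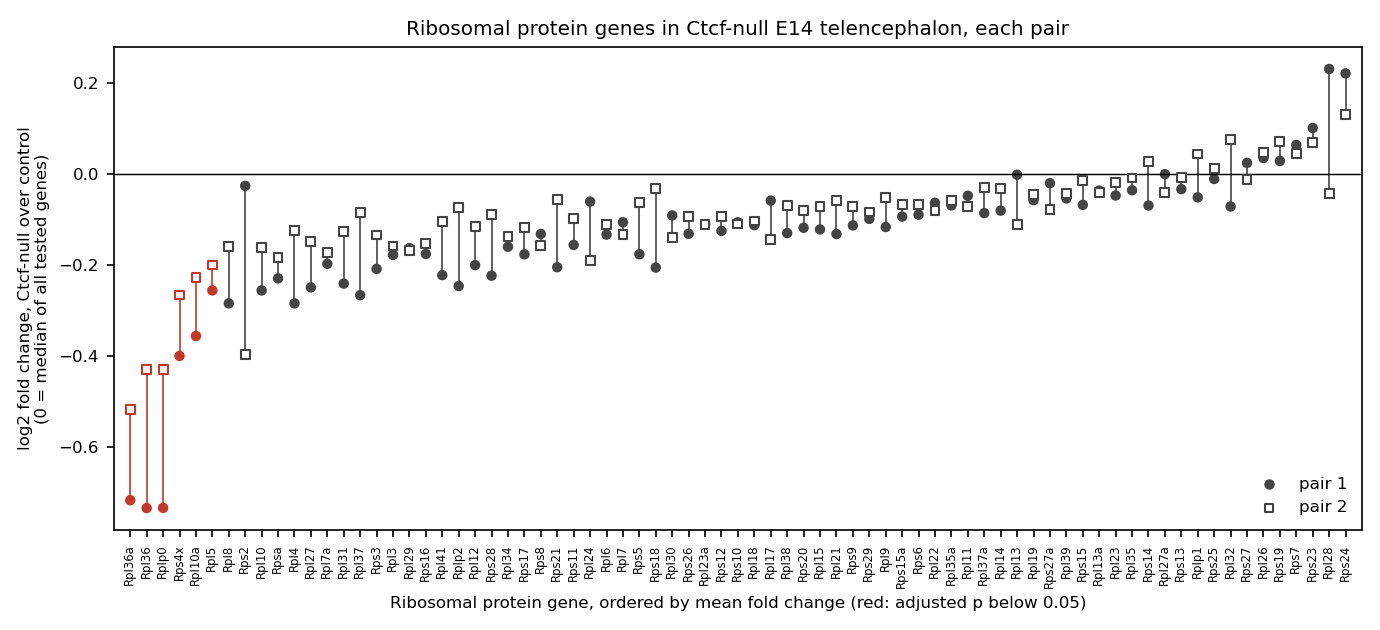
Log2 fold change of Ctcf-null over control relative to the median of all tested genes (vertical axis) for 75 of the 76 ribosomal protein genes, ordered by the mean of both pairs, with a filled circle for pair 1 and an open square for pair 2 and genes past the adjusted p in red. Rpl36a, Rpl36 and Rplp0 lie at -0.43 or below in both pairs, and most other genes lie slightly below 0.

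In the P stalk 1 of 3 genes, Rplp0, was lower, where 4.71% of all tested genes were. With the authors' scaling or with no filter on low values Rplp2 was lower as well. Rplp0, the protein that anchors the stalk to the large subunit, had normalized read counts of 53300.29 and 59919.39 in Ctcf-null libraries, against 92151.53 and 85228.56 in controls. Both Ctcf-null values lay below both control values. The log2 fold change was -0.58 (SE 0.08, limma adjusted p = 3.6e-04), at -0.73 in pair 1 and -0.43 in pair 2. Rplp0 is among the most abundant members and lies on chromosome 5 (GRCm38, 115559467 to 115563727, plus strand).

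The genes of the acidic proteins that bind Rplp0 as dimers did not pass. Rplp1 had 9989.30 and 25885.57 in Ctcf-null libraries and 10762.25 and 26520.41 in controls, with a log2 fold change of -0.00 (SE 0.07, limma adjusted p = 0.99) and opposite signs in the pairs. Under upper-quartile scaling its value was 0.04, and under 4 further choices of scaling or filter it was also above 0. Rplp2 had 16640.34 and 26291.35 in Ctcf-null libraries and 20520.32 and 29239.62 in controls, a log2 fold change of -0.16 (SE 0.07, limma adjusted p = 0.19). For both genes the difference between pairs exceeded that between genotypes.

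Among the 43 other genes of the large subunit, 4 were lower (9.30%) and 39 did not pass, with a median log2 fold change of -0.11. Of all tested genes 4.71% were lower. Rpl36a, on the X chromosome (134585654 to 134588062, plus strand), encodes a protein of the tRNA exit site region. It had 4582.76 and 7876.11 normalized reads in Ctcf-null libraries, against 7831.54 and 11911.23 in controls. Each Ctcf-null library was below the control of its pair, but the groups overlap, since Ctcf-null 2 lies just above control 1. The log2 fold change was the lowest of the 76 at -0.62 (SE 0.07, limma adjusted p = 5.5e-05), with -0.72 in pair 1 and -0.52 in pair 2.

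Rpl36, on chromosome 17 (56613416 to 56614243, plus strand), had 12160.12 and 19253.51 normalized reads in Ctcf-null libraries, against 21030.86 and 27387.21 in controls. Here the groups did not overlap. Its log2 fold change was -0.58 (SE 0.08, limma adjusted p = 2.2e-04), with -0.73 in pair 1 and -0.43 in pair 2. Rpl36 and Rpl36a are numbered alike but are unrelated proteins.

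Rpl10a, a protein of the mobile L1 stalk on chromosome 17, had 9632.92 and 16609.92 normalized reads in Ctcf-null libraries and 12818.64 and 20545.41 in controls (log2 fold change -0.29, SE 0.07, limma adjusted p = 0.013). Rpl5, which with Rpl11 and the 5S rRNA forms a particle that can bind Mdm2 and so stabilise p53, had 16140.42 and 20620.26 in Ctcf-null libraries and 20037.35 and 25018.22 in controls (-0.23, SE 0.06, limma adjusted p = 0.044). Rpl5 lay close to the threshold, and in DESeq2 its adjusted p was 0.10. Its partner Rpl11 was at -0.06 and did not pass. Rpl8, next in order, was at -0.22 with an adjusted p of 0.061 from limma, so the boundary separates nearly equal values. The highest value in the large subunit outside the P stalk was 0.09, for Rpl28, with 0.23 in pair 1 and -0.04 in pair 2 (limma adjusted p = 0.49).

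**Figure D2:**
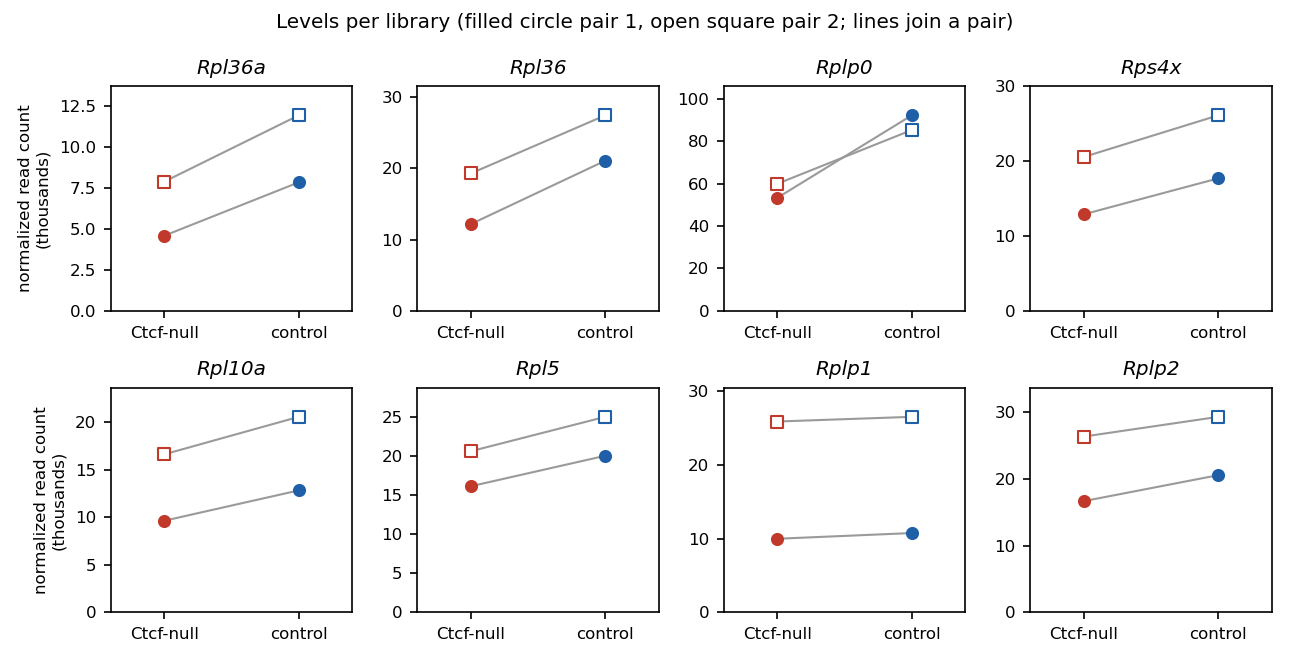
Normalized read count in units of 1000 (linear axis from 0) in each of the 4 libraries for the 6 lower genes and for Rplp1 and Rplp2, with Ctcf-null left of control, filled circles for pair 1, open squares for pair 2 and lines joining a pair. The 6 lower genes are lower in the Ctcf-null library of both pairs, and pair 2 lies above pair 1 in both genotypes for every gene shown except Rplp0, where control 1 is above control 2.

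Of the 30 genes of the small subunit 1 was lower (3.33%, against 4.71% of all tested genes), with a median of -0.10. Rps4x, an X-linked protein of the body of the small subunit (chromosome X, 102184941 to 102189394, minus strand), had 12899.75 and 20557.08 normalized reads in Ctcf-null libraries, against 17695.45 and 26108.91 in controls. Within each pair the Ctcf-null library was the lower, while across pairs the groups overlap. Its log2 fold change was -0.33 (SE 0.07, limma adjusted p = 0.0061), with -0.40 in pair 1 and -0.27 in pair 2. Rpsa, also known as the 67-kDa laminin receptor, was at 36634.50 and 52469.71 in Ctcf-null libraries and 44655.32 and 62917.04 in controls, a log2 fold change of -0.21 that did not pass (SE 0.07, limma adjusted p = 0.081).

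The 4 small subunit genes with the highest fold changes, none of which passed, were Rps24, Rps23, Rps7 and Rps19. Rps24, a protein needed for processing of the 18S rRNA precursor, had 15787.57 and 23299.08 normalized reads in Ctcf-null libraries and 14081.65 and 22487.88 in controls (log2 fold change 0.18, SE 0.07, limma adjusted p = 0.12). It was higher than its control in both pairs. Rps23, which lies at the decoding centre, was at 0.09, Rps7 at 0.06 and Rps19 at 0.05. In humans, changes in RPS24, RPS7 and RPS19 are among the known causes of Diamond-Blackfan anaemia. The values for Rps7 and Rps19 fall below 0 with the authors' own scaling.

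Across the family the shift was small and in a common direction. The median log2 fold change of the 76 genes was -0.11, with -0.11 in pair 1 and -0.08 in pair 2, and its quartiles were -0.16 and -0.05. In both pairs 64 members were below the median gene, 5 were above it in both, and 7 had opposite signs. Members below it in both pairs thus made up 84.2%, against 32.7% of all tested genes and 58.6% of the 360 other genes with a mean of 10000 or more. The standard deviation of the fold change across members was 0.13, against 0.44 across all tested genes, and without Rpl36a, Rpl36 and Rplp0 it was 0.09 with a median of -0.10. In 15 of 76 members both Ctcf-null libraries were below both controls on the deposited scale, where the share among all tested genes was 7.64%, and 0 of 76 had both above both controls, where the share was 6.45%.

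The family's median was close to that of equally abundant genes. Members have high counts, with a median over genes of 20030, and in these libraries the fold change moved with abundance. The median log2 fold change was 0.11 for tested genes with a mean of 10 to 100 normalized reads, -0.01 from 100 to 1000, -0.06 from 1000 to 10000 and -0.09 at 10000 or more. The 360 genes of the highest range that are not members also had a median of -0.09, with a standard deviation of 0.20. When the trend on expression was removed, the members' median was -0.00, and Rpl36a, Rpl36, Rplp0, Rps4x and Rpl10a were still lower in limma, while Rps23 and Rps24 passed as higher. The departure of these 5 genes is therefore measured against both the median gene and genes of like abundance. The shift of the family's median is measured against the median gene only. The trend was fitted with the members included. Members below the median gene in both pairs made up 84.2%, against 58.6% of the 360 other genes.

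**Figure D3:**
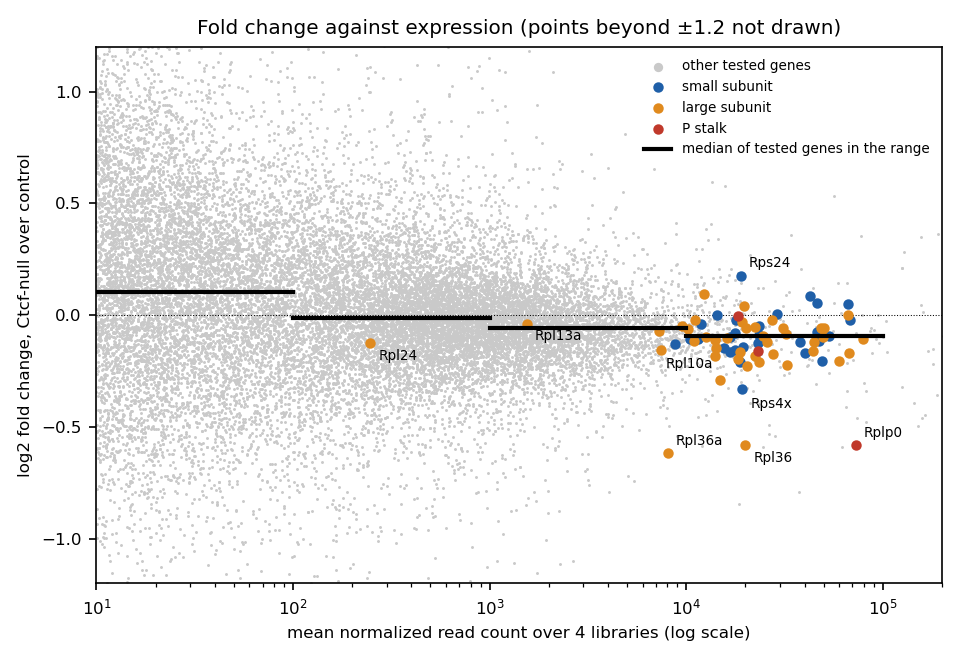
Log2 fold change of Ctcf-null over control against the mean normalized read count (log axis), with the 76 members in colour. Grey points are the other tested genes with a mean of 10 or more that fall within the axes. Horizontal bars give the median of tested genes in each range of mean count, from 0.11 at 10 to 100 down to -0.09 at 10000 or more, and most members lie around the bar of their own range.

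Taken as a share of the library, ribosomal protein reads differed more between pairs than between genotypes. They made up 5.80% and 6.67% of the reads in Ctcf-null libraries, against 5.64% and 6.74% in controls. The summed normalized count in the Ctcf-null library was 0.867 times that of its control in pair 1 and 0.888 times in pair 2. These measures point in opposite directions in pair 1, as the deposited scaling does not make library totals equal. Rpl36a, Rpl36 and Rplp0 together made up 3.90% and 4.21% of all ribosomal protein reads in Ctcf-null libraries and 5.84% and 5.35% in controls. These 3 genes were picked as the largest falls in the same libraries, so this share is a description.

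The level of single members varied widely. Among the most abundant, Rps14, a protein of the small subunit platform, was at -0.02 and did not pass (limma adjusted p = 0.91), with 70868.36 and 61203.52 in Ctcf-null libraries and 77308.52 and 63418.60 in controls. On the scale of normalized reads per kilobase of mRNA, Rps14 at 86880, Rps19 at 85450 and Rps18 at 84500 led.

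The lowest members were Rpl24, Rpl13a and Rpl22. Rpl24 had 272.24 and 191.95 normalized reads in Ctcf-null libraries and 295.29 and 231.40 in controls, or 366 per kilobase. Its exons overlap the annotated read-through gene Gm28037, which was listed at 0 in all 4 libraries, and reads shared by overlapping genes can be left out of counts, so this low level is uncertain. Rpl13a, at 1258.65 and 1714.20 in Ctcf-null libraries and 1342.17 and 1862.42 in controls, shares exons with Flt3l. Rpl22, with 4724.89 and 9021.74 in Ctcf-null libraries and 5132.97 and 10071.33 in controls, had a log2 fold change of -0.07. None of these 3 passed in limma, with adjusted p of 0.60, 0.82 and 0.57 in that order.

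The pairs differed far more than the genotypes for a few members. Rps2, a protein at the mRNA entry tunnel, had 2916.11 normalized reads in Ctcf-null 1 and 29052.78 in Ctcf-null 2, against 3087.25 in control 1 and 40421.65 in control 2. Its log2 difference between pair 2 and pair 1 was 3.32 in Ctcf-null libraries and 3.71 in controls. Rps10 was at 2428.91 and 19081.00 in Ctcf-null libraries and 2718.13 and 21747.42 in controls. Rpl13 differed by 2.18 in Ctcf-null libraries and 2.31 in controls, and Rpl27a by 1.89 in Ctcf-null libraries and 1.95 in controls.

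In all, 8 of 76 members differed over 2-fold between the controls (10.5%), a share below that of all tested genes (44.2%). The median count was 20030 for members and 166 for all tested genes, so these shares compare genes of unlike abundance. The members' differences between pairs were nearly the same in both genotypes (r = 0.992 across 76 genes, which share the same 4 libraries). Across members the difference between the controls had r = 0.01 (rho = -0.165) with GC content and r = 0.07 with the length of the mRNA, while over 22020 tested genes r with GC content was 0.37 (rho = 0.34). The labels do not say what links the libraries of a pair. The 3 largest differences between the pair fold changes were those of Rps2, Rplp0 and Rpl36. Rps2 had a log2 fold change of -0.03 in pair 1 and -0.40 in pair 2 (-0.21 over both, SE 0.08, limma adjusted p = 0.14).

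**Figure D4:**
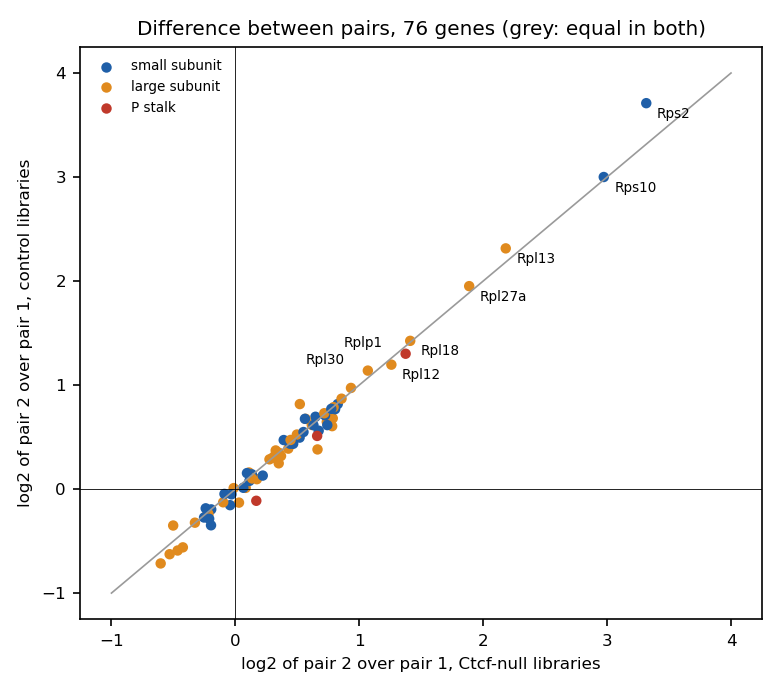
Log2 difference of pair 2 over pair 1 in the controls (vertical axis) against the same in the Ctcf-null libraries (horizontal axis) for the 76 members, with a grey line where both are equal. The points lie along the line, up to Rps2 at 3.32 and 3.71, and 8 genes exceed a log2 difference of 1 in the controls.

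Fold changes of the members in pair 1 and pair 2, which share no library, had r = 0.795 and rho = 0.683 across 76 genes. Without Rpl36a, Rpl36 and Rplp0, r was 0.604, and over all tested genes it was 0.440. Genes are not independent replicates, and these values describe the 2 pairs only.

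Ribosomal protein genes have many processed pseudogenes, copies of their mRNA inserted elsewhere in the genome, and reads can be placed on either. Of the pseudogenes named after a member, 198 were tested, and 19 were lower (9.60%) and 0 higher, with a median of -0.18. Of all tested genes 4.71% were lower and 4.09% higher. Of the copies of the 3 leading genes with a mean of at least 100 normalized reads, all but 1 were lower. Rpl36-ps2 had 871.86 and 895.37 normalized reads in Ctcf-null libraries and 1580.54 and 1290.81 in controls (log2 fold change -0.62, limma adjusted p = 6.1e-04). Rpl36-ps3 was at -0.60, Rpl36a-ps1 at -0.69, Rpl36a-ps2 at -0.59 and Rplp0-ps1 at -0.79, and all of these were lower, whereas Rpl36a-ps3 was at -0.03 and did not pass.

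Copies of Rps4x, Rpl10a and Rpl5 were lower as well, with Rps4x-ps at -0.41, Rpl10a-ps1 at -0.26, Rpl5-ps1 at -0.24 and Rpl5-ps2 at -0.38. Lower copies were not limited to the called members. Rpsa-ps12, Rps2-ps6, Rpl3-ps2, Rpl10-ps1 and Rpl18-ps1, among others, were lower although the genes they copy did not pass. Summed over copies, pseudogene counts came to 24.1% of the count of Rpl36a and 9.57% of that of Rpl36, but 0.26% of that of Rplp0. For Rpl27 and Rpl10 the copies exceeded the gene itself, at 129% and 107%, and for Rpl35a they came to 82.1%. The levels of these members are therefore uncertain. With each member summed with its named copies, an alternative added after the data were seen, 6 members were again lower and 0 higher.

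**Figure D5:**
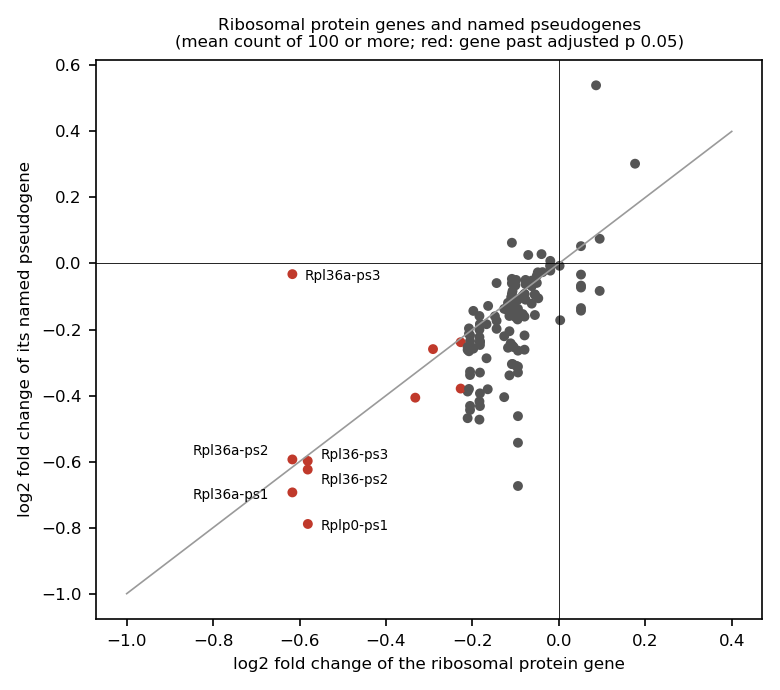
Log2 fold change of 130 named pseudogenes with a mean of at least 100 normalized reads (vertical axis) against that of the ribosomal protein gene they copy (horizontal axis), with a line of equality. Red points, copies of the 6 lower genes, lie low on both axes, apart from Rpl36a-ps3 at -0.03.

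Of 26 entries for the nearest tested genes beside or overlapping the lower members, 1 was lower, where 4.71% of all tested genes were. They were looked at after the members' values were seen. Beside Rpl36a, Gla lies 87 bases away and was at 0.13, Btk was at 0.27 and Hnrnph2 at 0.08. Beside Rplp0, Gcn1l1 was at 0.17 and Pxn at 0.09. Beside Rpl36, Lonp1 lies 54 bases away and was at -0.21 (limma adjusted p = 0.16), while Safb was lower at -0.37 (SE 0.10, limma adjusted p = 0.025). Of the 4 members on the X chromosome, Rpl36a and Rps4x were lower and Rpl10 and Rpl39 did not pass, at -0.21 and -0.05.

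Ribosomal proteins, paralogs and other listed genes outside the symbol rule, such as Rps19bp1, were lower in 2 of 13 cases. Of these 13, 2 were lower (15.4%, against 4.71% of all tested genes) and 0 higher, with a median of -0.18. Rpl22l1, the paralog of Rpl22, had 1445.33 and 3304.49 normalized reads in Ctcf-null libraries and 1873.16 and 4060.05 in controls (log2 fold change -0.27, SE 0.07, limma adjusted p = 0.033). Rps3a2 was lower at -0.23 and may share reads with Rps3a1, which was at -0.22 and did not pass (limma adjusted p = 0.057). Rpl36al, the paralog of Rpl36a, had 3375.02 and 5645.57 in Ctcf-null libraries and 3760.56 and 5939.98 in controls. At -0.05 (SE 0.07, limma adjusted p = 0.74) it did not pass, with -0.10 in pair 1 and 0.01 in pair 2. Fau at -0.18, Rack1 at -0.14, Rps27l at 0.09 and Rps4l at 0.13 did not pass.

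Genes that act with the ribosome gave mixed calls, where 4.71% of all tested genes were lower and 4.09% higher. Of 38 translation initiation factors 3 were lower (Eif1b at -0.30, Eif3f at -0.42 and Eif3k at -0.23) and 0 higher, with a median of -0.09. Of 11 elongation factors and their partners 3 were lower (Eif5a at -0.29, Tpt1 at -0.27 and Eef1e1 at -0.24) and 0 higher, with a median of -0.21. Eef1a1, the factor that delivers tRNA, was at -0.26 and did not pass (limma adjusted p = 0.075).

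Among 58 tested ribosome assembly factors 6 were lower and 1 higher, with a median of -0.08. The higher one was Ncl, nucleolin, which binds nascent rRNA. It had 6675.09 and 21056.40 normalized reads in Ctcf-null libraries and 5052.92 and 17918.76 in controls (log2 fold change 0.39, SE 0.07, limma adjusted p = 0.0021). Gar1 at -0.51, Noc2l at -0.57, Imp3 at -0.34, Gnl3l at -0.30, Sbds at -0.26 and Nob1 at -0.25 were lower. Of 15 genes of RNA polymerase I and its factors, 1 was higher (Taf1a at 0.34) and 0 lower. Of 15 snoRNA host genes, Snhg11 was higher at 1.32, and Snhg17 at -0.76 and Snhg18 at -0.48 were lower.

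The mitochondrial ribosome is a separate machine with its own proteins. Of its 76 tested genes 4 were lower (5.26%, against 4.71% of all tested genes) and 0 higher. The median was -0.12 and the standard deviation 0.34. Mrpl23 had 300.52 and 795.75 normalized reads in Ctcf-null libraries and 1956.77 and 3697.32 in controls (log2 fold change -2.39, SE 0.11, limma adjusted p = 5.6e-09). Mrps2 was at -1.66, Mrpl4 at -0.31 and Mrps17 at -0.25. The lowest value of any cytosolic member was -0.62, for Rpl36a.

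All calls rest on comparing libraries within pairs. Without the pair as a term, limma called 0 of 22158 genes and 0 members at the same threshold, while 176 genes and 1 member had an unadjusted p under 0.05. DESeq2 with the pair called 5 members lower (2.45% of all tested genes were lower) and 0 higher (1.3%), and edgeR with the pair called 12 lower (7.13%) and 0 higher (4.8%). The 5 genes Rpl36a, Rpl36, Rplp0, Rps4x and Rpl10a were lower in both. An exact permutation test of 2 against 2 libraries cannot reach p under 0.05.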

How the data were processed

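The authors deposited 1 table of 48795 genes for 4 libraries of embryonic day 14 telencephalon, prepared with a Clontech SMART cDNA kit, per the labels' protocols. The submitters' processing notes name mm10, DESeq2 and STAR 2.5.3. The sources used here give no gene counter, annotation release or strand setting, so overlapping genes cannot be told apart. Per the file headers, the authors' values are normalized read counts, a signal not divided by gene length, with log2 fold changes per pair and averaged over pairs. In each library at least 99.972% of nonzero values were whole multiples of 1 step (tolerance 0.005), so whole reads were recovered. One read was worth 0.707 in Ctcf-null 1, 1.21 in Ctcf-null 2, 0.889 in control 1 and 1.25 in control 2.

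The 22158 genes kept by filterByExpr (edgeR 4.0.16, minimum count 10) were fitted in limma 3.58.1 (R 4.3.3) on log2(normalized count + 1), with genotype and pair as terms and a variance trend on expression. That scale understates changes of low genes. The median difference of Ctcf-null from control over tested genes, -0.06 in pair 1 and -0.08 in pair 2 on the log2 scale, was first subtracted from each Ctcf-null library, so that it became 0. The fit leaves 1 residual degree of freedom and borrows 12.6 from the spread of other genes. Replicate numbers were taken as pairs because the submitters describe 2 pairs and deposited a fold change for each. After subtracting each genotype's mean, libraries of the same number correlated at r = 0.923 across genes. Tests on recovered counts in edgeR and DESeq2 1.42.0, other scalings, filters and left-out libraries were alternatives. Depth sets counting error only, which is small at the counts of most members. Rpl24, with 158 to 385 reads per library and an SE of 0.12, is an exception.

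The members and lists were chosen with earlier results of these data known. Genes named are the called members, the P stalk genes and Rpsa, the 5 highest fold changes, the 3 highest and 3 lowest levels, and the 3 largest differences between pairs, except 1 gene that is not reported here. Others, such as Rpl8, Rps10, Rpl36al and the neighbouring genes, were named after their values were seen. All 76 members matched GENCODE M21 (GRCm38) by identifier. Promoters were those of RefSeq.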

Additional observations from a re-analysis of the deposited data

How the results depend on the processing

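With the pair (replicate block) as a term and a variance trend, Rpl36a, Rpl36, Rplp0, Rps4x and Rpl10a were lower under all scalings, filters, pseudocounts and count tools tried. The number of members lower was 6 as reported, 32 with the authors' size factors, 13 with TMM, 12 in edgeR and 31 with no filter on low values. It was 0 without the block and 0 in limma without the variance trend (3 members and 3272 of 22158 genes with an unadjusted p under 0.05). Members higher numbered 1 when centred on genes with a mean of 1000 or more and 2 with the expression trend removed, else 0. With 1 library left out, 0 members were lower or higher, and all genes lower numbered 0 to 2 and higher 0. All genes lower numbered 1044 as reported, 2228 with the authors' size factors, 1360 with TMM, 1580 in edgeR and 543 in DESeq2, each of 22158. Without a filter 2074 of 41768 genes were lower. All genes lower numbered 0 without the block and 0 without the trend. All genes higher numbered 906, 1712 centred on abundant genes, 289 in DESeq2, 0 without the block and 0 without the trend. Rises made up 46.5% of calls as reported, 26.7% with the authors' size factors, 57.7% with upper-quartile factors, 62.8% centred on abundant genes, 31.3% without a filter and 34.7% in DESeq2. The authors' size factors put the median of all genes at -0.07. The members' median relative to all tested genes, -0.11, was -0.0028 with the trend removed, -0.0772 with GC and length correction, -0.137 without a filter, -0.0819 with a stricter one, and -0.269 to -0.0175 with 1 library or pair left out. The cause of these moves was not tested.

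Single values crossed 0 as follows. With the authors' factors Rps7 was -0.0128 and Rps19 -0.0171 (-0.0042 without a filter). With upper-quartile factors, centring on abundant genes, trend removal and GC and length correction in turn, Rplp1 was 0.0362, 0.0560, 0.0891 and 0.15, Rps14 was 0.0190, 0.0388, 0.11 and 0.0390, and Rpl13a was 0.0013, 0.0211, 0.0122 and 0.0104. With a stricter filter Rplp1 was 0.0218 and Rps14 0.0046. With the trend removed Rpl22 was 0.0086. With 1 library or 1 pair left out, ranges were -0.12 to 0.44 for Rps24, -0.27 to 0.43 for Rpl28, -0.15 to 0.22 for Rps23, -0.10 to 0.12 for Rps7, -0.19 to 0.23 for Rps19, -0.68 to 0.57 for Rplp1, -0.48 to 0.0585 for Rplp2, -0.24 to 0.17 for Rps14, -0.49 to 0.13 for Rpl24, -0.25 to 0.12 for Rpl13a, -0.53 to 0.34 for Rpl22 and -2.02 to 1.57 for Rps2. The called genes stayed below 0, from -0.9996 to -0.34 for Rpl36a, -0.91 to -0.36 for Rpl36, -0.73 to -0.43 for Rplp0, -0.66 to -0.11 for Rps4x, -0.68 to -0.01 for Rpl10a and -0.40 to -0.14 for Rpl5.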
